A study of Mus musculus with 6 samples.

Results

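Chemokines are small secreted or membrane-anchored proteins that direct cell movement through G protein-coupled receptors, and 9 genes of this system are described here: the ligands Cxcl14, Cxcl12, Cxcl16, Cx3cl1, Cxcl1, Cxcl10, Ccl20 and Ccl2, and the receptor Cxcr4. Those with values were selected on their measured levels and on how far tip and stalk libraries of the same table stood apart, out of 21456 gene symbols with values. Their differences between tip and stalk are therefore given as a description with no test. Of the 9 genes, 8 had values and 7 reached the mean of 1 RPKM (a read count corrected for transcript length and library size) that admitted a gene to the all-gene comparison. The lowest of the 7 was Cxcl12, with a mean of 6.49 RPKM over the 6 libraries. Ccl20 lay outside, at 0.635 RPKM, and Ccl2 had no value in any library.

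The libraries were made from kidneys of CFW mice, an outbred stock, at embryonic stage E16.5. All cells carried the Hoxb7GFP reporter of the ureteric epithelium, the branching tree that becomes the collecting ducts. The tip group was Wnt11RFP+;Hoxb7GFP+, where Wnt11 marks the growing ends of the tree, and the stalk group was Wnt11RFP-;Hoxb7GFP+, with 3 mRNA libraries each. The comparison asks how these compartments of 1 epithelium differ, and no treatment or other genotype entered it.

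Chemokine receptors signal through inhibitory G proteins to the cytoskeleton and to cell adhesion, and most ligands are known for recruiting leukocytes. CXCL12 and its receptor CXCR4 also act outside immunity, in the migration of germ cells and neurons and in the growth of vessels, including those of the kidney. In the ureteric tip, Cxcr4 is known as a gene that depends on the transcription factors Etv4 and Etv5, which act downstream of the growth factor receptor Ret.

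Library totals and neighbouring cell types bear on every value below. Each library had between 12194 and 12472 genes at 1 RPKM or more, and the read depth behind the values is unknown. All 8 ureteric tip markers of a list, Ret and Wnt11 among them, rose in tip (limma, adjusted p below the threshold of 0.05). Their summed level was 1382 to 2186 RPKM in tip against 163 to 214 RPKM in stalk. Tip cells were sorted on Wnt11RFP, and the list was chosen with earlier results of these data known. The outcome for these markers therefore describes the sort and is not a test of it. Summed endothelial markers were 36.5 to 39.1 RPKM in tip and 80.4 to 128 RPKM in stalk, and 10 of 11 tested endothelial genes were higher in stalk while Eng was higher in tip. Egfl7 and Eng had the highest tip means of that list, so the sums understate the difference of its other genes. The stalk mean of Egfl7 was 1.38-fold its tip mean, against 8.62-fold for Pecam1 and 9.37-fold for Cdh5. For every tested gene but Egfl7 and Eng it was at least 5.13-fold, the value of Kdr. Immune markers summed to 13.2 to 15.8 RPKM in tip and 14.4 to 21.6 RPKM in stalk. Of the 4 tested immune genes, Cd68 was higher in tip, at 8.60 to 10.7 RPKM against 4.71 to 5.94 RPKM. Laptm5, at 5.03 RPKM against 0.101 RPKM, and Cd14, at 1.93 RPKM against 0.120 RPKM, were higher in stalk. The leukocyte gene Ptprc ranged from 3.45 to 7.14 RPKM over the 6 libraries and did not pass (limma, adjusted p = 0.143). Of the untested genes, Csf1r and Itgam were low but higher in stalk without overlap, with means of 0.264 against 0.0653 RPKM and 0.188 against 0.0277 RPKM. The groups overlapped for the rest, among them the macrophage genes Emr1 and C1qa, which stayed at or below 0.0949 RPKM in every library. Stromal markers summed to 6.55 to 13.4 RPKM in tip and 10.1 to 13.5 RPKM in stalk, with 1 of 5 tested genes higher in stalk. Markers of nephron progenitors and the early nephron summed to 66.5 to 71.8 RPKM in tip and 84.6 to 106 RPKM in stalk, and of 5 tested genes 3 were higher in tip and 1 in stalk. The tip-high genes were Cited1, at 2.15 RPKM against 0.804 RPKM, Crym, at 2.23 RPKM against 0.512 RPKM, and Jag1, and the stalk-high gene was Wnt4. The untested progenitor gene Six2 had a mean of 0.638 RPKM in tip and 0.148 RPKM in stalk. Other untested genes of the list went the other way. Osr1 had 0.0455 RPKM in tip and 0.535 RPKM in stalk, without overlap, and Meox1 0.0551 and 0.238 RPKM, with overlap. Wnt4, at 45.5 RPKM, and Pax8, at 30.9 RPKM, weighed most in the stalk sum, and Pax8 is also on the list of ureteric epithelium markers. Immediate early genes, which respond to cell handling, summed to 4215 to 5736 RPKM in tip and 6106 to 9122 RPKM in stalk, and 9 of 16 were higher in stalk. Over all 12532 tested genes, 26.1% were higher in tip and 22.5% in stalk by the same comparison. The stromal count lies near the stalk share, and small counts of tested markers are not read as particular to their list. No gene of these lists was at 0 in every library. The part of these cells and responses in the chemokine values was not tested, and in bulk RNA fewer cells of a type and less RNA per cell cannot be told apart.

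Tip library 2 and stalk library 1 stood apart from the other 4. On the second principal component, which held 9.21% of the variance, they scored -20.5 and -25.0 against 7.72 to 18.5 for the rest. The tip minus stalk differences of the 7 chemokine genes above the minimum level, and the main ligand shares, are therefore also given without that pair.

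Promoter sequences are shown for 5 genes, to set the genes high in tip beside a pair of inflammatory ligands whose groups overlapped. A RefSeq promoter window (GRCm38.p6) was found for 7 of the 9 genes, and the 250 bases before each start were searched on both strands for 5 motifs. Each line below runs 5′ to 3′ on the gene's strand, from 200 to 11 bases before the start, and capitals mark every motif match. Cxcl14, Cxcl12 and Cxcr4 are the 3 tested genes whose tip libraries all lay above the stalk libraries. Their windows are chr13:56296562-56296751 on the minus strand, chr6:117168335-117168524 on the plus strand and chr1:128592310-128592499 on the minus strand.
Cxcl14: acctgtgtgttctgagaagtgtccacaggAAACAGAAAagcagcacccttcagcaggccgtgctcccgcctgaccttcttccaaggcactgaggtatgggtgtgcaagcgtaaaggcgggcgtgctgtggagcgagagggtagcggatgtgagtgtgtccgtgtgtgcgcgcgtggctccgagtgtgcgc
Cxcl12: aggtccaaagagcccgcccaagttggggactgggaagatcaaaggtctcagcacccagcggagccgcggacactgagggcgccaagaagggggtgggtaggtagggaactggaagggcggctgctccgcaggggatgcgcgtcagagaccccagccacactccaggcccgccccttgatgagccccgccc
Cxcr4: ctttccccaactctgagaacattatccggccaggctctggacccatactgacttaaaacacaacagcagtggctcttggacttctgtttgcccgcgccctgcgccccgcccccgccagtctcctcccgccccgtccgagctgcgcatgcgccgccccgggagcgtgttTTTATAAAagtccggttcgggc
The capitals in Cxcl14 are a match to the interferon response element (TTTCNNTTT) on the opposite strand, and those in Cxcr4 are 2 overlapping matches to the TATA box (TATAAA), 1 on each strand. The printed stretch of Cxcl12 held no match. Cxcl1 and Cxcl10 are textbook targets of inflammatory signals, with windows chr5:90891045-90891234 on the plus strand and chr5:92348900-92349089 on the minus strand.
Cxcl1: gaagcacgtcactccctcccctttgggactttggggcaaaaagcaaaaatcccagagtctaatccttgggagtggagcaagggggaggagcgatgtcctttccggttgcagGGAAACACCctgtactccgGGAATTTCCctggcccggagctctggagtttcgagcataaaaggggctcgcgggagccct
Cxcl10: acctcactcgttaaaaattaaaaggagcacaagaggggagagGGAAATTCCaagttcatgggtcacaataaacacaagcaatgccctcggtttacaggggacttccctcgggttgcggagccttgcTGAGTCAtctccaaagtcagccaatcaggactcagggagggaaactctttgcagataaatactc
The capitals in Cxcl1 are 2 matches to the NF-kB motif (GGNNTTTCC), 1 on each strand, 89 to 81 and 70 to 62 bases before the start. In Cxcl10 they are an NF-kB match on the opposite strand, 158 to 150 bases before the start, and an AP-1 match (TGANTCA) at 74 to 68 bases. A further Cxcl10 match, to the interferon response element at 212 to 204 bases, lies upstream of the printed stretch.

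The NF-kB motif was found in 3 of the 7 windows, those of Cxcl1, Cxcl10 and Ccl20, and in 4.93% of 32851 windows of the same length. The interferon response element was in 2 of 7 and in 9.37% of all windows, AP-1 in 1 of 7 and 6.75%, the TATA box in 2 of 7 and 12.4%, and the PEA3 motif of the Etv4 and Etv5 family (AGGAAG) in 2 of 7 and 29.5%. The PEA3 matches were in Cx3cl1 and Ccl20. These are matches of letters in a short window, not sites shown to be bound. The share of G and C in the 250 bases was 59.6% for Cxcl14, 61.2% for Cxcr4, 64.4% for Cxcl12, 64.8% for Cx3cl1, 59.2% for Cxcl1, 51.2% for Ccl20 and 48% for Cxcl10, against a median of 52.4% over all windows.

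Cxcl14, a ligand made by epithelia whose receptor is not settled, was the most abundant chemokine transcript of the tip. In stalk it held rank 6 among the 8 selected genes with values, while most of the unselected ligands had lower means there. The gene lies at chr13:56288643-56296551 on the minus strand (GENCODE M21 annotation, as for all gene positions here). Its level in the 3 tip libraries was 55.3, 40.4 and 45.9 RPKM, and in the 3 stalk libraries 0.906, 1.64 and 3.85 RPKM. Every tip library lay far above the highest stalk library. The means were 47.2 ± 7.55 RPKM in tip and 2.13 ± 1.53 RPKM in stalk (SD, n = 3), 22.1-fold higher in tip, with a difference of 4.04 on the log2(RPKM + 1) scale (SE 0.31). This scale understates the change of low genes. The ratio of means rested on the low stalk values: it was 37.1 without stalk library 3, 17.2 without stalk library 1 and 18.4 without the pair that stood apart, where the log2 difference was 3.84.

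Cxcl12, the ligand of CXCR4, was also higher in tip, at chr6:117168535-117181367 on the plus strand. Tip libraries had 13.1, 6.59 and 13.5 RPKM and stalk libraries 1.48, 2.10 and 2.09 RPKM. The groups did not overlap, but tip library 2 was at 0.494 of the mean of the other two tip libraries. Mean levels were 11.1 ± 3.90 RPKM and 1.89 ± 0.355 RPKM (SD, n = 3), a ratio of 5.88 and a log2 difference of 2.01 (SE 0.25). Without the pair that stood apart the log2 difference was 2.21. The table lists 4 rows for Cxcl12, without transcript names, and their make-up differed between groups: the first row held 51.1% ± 2.29 of the gene's RPKM in tip and 25.5% ± 3.38 in stalk (SD, n = 3).

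Cxcr4, the receptor of CXCL12, lies at chr1:128588199-128592293 on the minus strand and was present in both compartments. Its level was 32.0, 25.1 and 24.3 RPKM in the tip libraries and 7.62, 6.96 and 7.27 RPKM in the stalk libraries. The 3 stalk values lay close together, and every tip value was well above the highest of them. Means of 27.1 ± 4.23 and 7.29 ± 0.333 RPKM (SD, n = 3) gave a ratio of 3.72 and a log2 difference of 1.75 (SE 0.13), and 1.83 without the pair that stood apart. The second of its 2 rows held 22.8% of the gene's RPKM in tip library 2 and 20.1% in stalk library 1. In the other 4 libraries that row held at most 0.0450%.

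**Figure D1:**
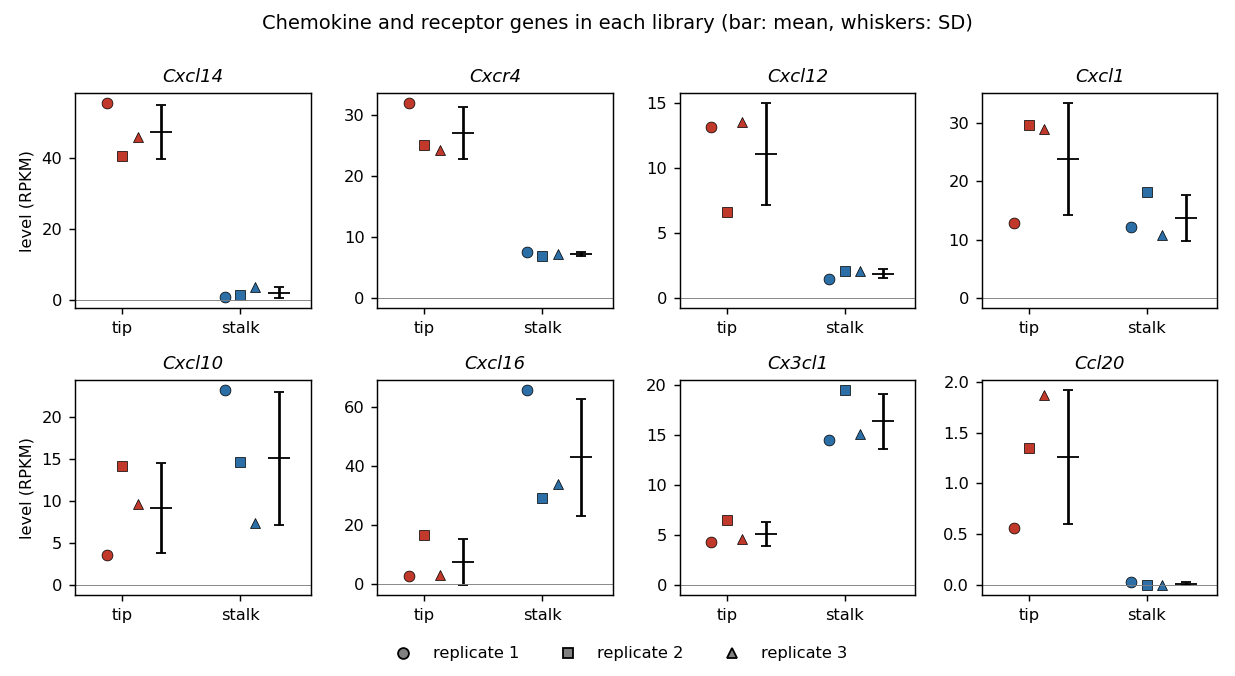
RPKM of each chemokine gene in the 3 tip and 3 stalk libraries (points), with the mean and SD of each group beside them. Cxcl14, Cxcr4 and Cxcl12 have every tip library above every stalk library, Cxcl16 and Cx3cl1 the reverse, and Cxcl1 and Cxcl10 overlap.

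Cxcl16 and Cx3cl1 encode the chemokines that are made as transmembrane proteins, with the chemokine domain on a mucin stalk, and both were higher in the stalk compartment. Cxcl16, at chr11:70453983-70459984 on the minus strand, had 2.72, 16.6 and 3.09 RPKM in tip and 65.7, 29.0 and 34.0 RPKM in stalk. All stalk libraries lay above all tip libraries, and the highest value of each group came from the pair that stood apart. The means were 7.48 ± 7.93 RPKM in tip and 42.9 ± 19.9 RPKM in stalk (SD, n = 3), and stalk was 5.73-fold higher, with a log2 difference of -2.67 (SE 0.57). That ratio was 14.7 without tip library 2 and 10.8 without both libraries, where the log2 difference was -3.05.

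Cx3cl1, also called fractalkine, lies at chr8:94772009-94782427 on the plus strand and varied less between libraries. Tip libraries had 4.31, 6.52 and 4.62 RPKM and stalk libraries 14.5, 19.5 and 15.1 RPKM. The lowest stalk value was well above the highest tip value. The means were 5.15 ± 1.20 and 16.4 ± 2.72 RPKM (SD, n = 3), so that stalk was 3.17-fold higher, with a log2 difference of -1.50 (SE 0.17), and -1.73 without the pair. Fractalkine is also made by endothelium, whose summed markers moved in the same direction, as given above, although both groups were sorted as Hoxb7GFP+ cells. The part of endothelium in the Cx3cl1 values was not tested.

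Cxcl1 and Cxcl10, ligands induced by inflammatory signals, were present in both compartments with overlapping groups. Cxcl1, which attracts neutrophils through CXCR2, lies at chr5:90891241-90893115 on the plus strand. Tip libraries had 12.8, 29.7 and 29.0 RPKM and stalk libraries 12.2, 18.2 and 10.9 RPKM. Tip library 1 fell within the stalk range, while the other two tip libraries lay above it. The means were 23.8 ± 9.53 and 13.8 ± 3.90 RPKM (SD, n = 3), a log2 difference of 0.69 (SE 0.31), 0.43 without the pair that stood apart and 1.07 without tip library 1. Reads of Cxcl1 may be shared with its close paralog Cxcl2, so both values carry that uncertainty.

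Cxcl10, an interferon-induced ligand of CXCR3, lies at chr5:92346638-92348889 on the minus strand. Its level was 3.54, 14.2 and 9.71 RPKM in tip and 23.2, 14.7 and 7.40 RPKM in stalk. Of the 3 tip values, 2 lay within the stalk range. The means were 9.14 ± 5.33 and 15.1 ± 7.89 RPKM (SD, n = 3), with a log2 difference of -0.70 (SE 0.48) that was -0.72 without the pair. It was -0.21 without tip library 1, -0.35 without stalk library 1, -1.08 without tip library 2 and -1.11 without stalk library 3.

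The selected CC ligands, Ccl20 and Ccl2, were scarce or without a value. Ccl20, the ligand of CCR6, lies at chr1:83116766-83119167 on the plus strand and had 0.560, 1.35 and 1.87 RPKM in tip. Among stalk libraries it had 0.0293 RPKM in library 1 and was listed at 0 in the other two, so no fold is given. Ccl2, which draws monocytes and lies at chr11:82035571-82037453 on the plus strand, appeared only in rows filled with question marks.

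Among the 7 tested chemokine genes, 3 had every tip library above every stalk library, against 31.3% of all 12532 tested genes, and 2 had every stalk library above every tip library, against 26.5%. With Ccl20 the first count was 4 of the 8 with values. Since the genes were picked on this contrast, nothing is read from these counts. The median log2 difference over all tested genes was 0.05.

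**Figure D2:**
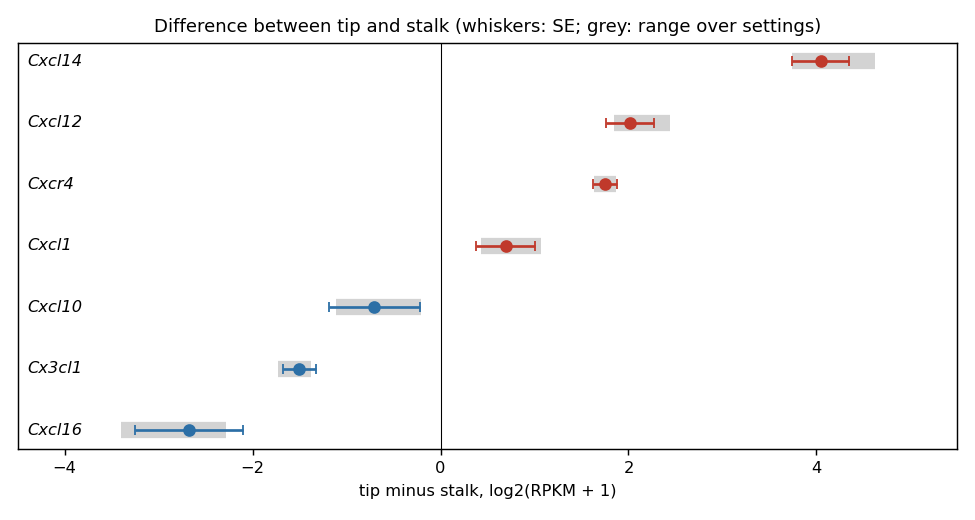
Tip minus stalk difference on the log2(RPKM + 1) scale for the 7 tested chemokine genes, with the standard error of the all-gene limma fit (whiskers) and the range over alternative settings (grey). Cxcl14 lies farthest to the tip side at 4.04 and Cxcl16 farthest to the stalk side at -2.67.

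The order of levels, compared per transcript length, differed between the compartments. In tip it ran Cxcl14, Cxcr4, Cxcl1, Cxcl12, Cxcl10, Cxcl16, Cx3cl1 and Ccl20. Neighbours in that order were separated beyond their library ranges only for Cxcl14 against Cxcr4 and for Cx3cl1 against Ccl20. In stalk the order was Cxcl16, Cx3cl1, Cxcl10, Cxcl1, Cxcr4, Cxcl14, Cxcl12 and Ccl20. There the library ranges of neighbours did not overlap for Cxcl16 against Cx3cl1, Cxcl1 against Cxcr4, Cxcr4 against Cxcl14 and Cxcl12 against Ccl20.

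The make-up of the ligands differed between the groups, while the sums of ligand RPKM overlapped. Of 39 listed mouse chemokine ligands 22 had values, and they summed to 125 ± 15.8 RPKM in tip and 108 ± 26.6 RPKM in stalk (SD, n = 3). The 3 tip sums were 109, 140 and 127 RPKM and the 3 stalk sums 138, 100.4 and 86.5 RPKM. Cxcl14 made up 38.7% ± 11.3 of the sum in tip and 2.25% ± 1.97 in stalk, and Cxcl16 made up 5.61% ± 5.44 and 38.6% ± 9.36. Cxcl1 held 18.6% in tip and 13.2% in stalk, Cx3cl1 4.09% and 15.8%, and Cxcl12 9.15% and 1.86%. Without the pair that stood apart, the sums no longer overlapped, at 109 and 127 RPKM in tip and 100.4 and 86.5 RPKM in stalk. There Cxcl14 averaged 43.5% in tip and 3.05% in stalk, and Cxcl16 2.47% and 34.1%. Ccl27a, a skin-type ligand that was not among the selected genes, held 8.07% and 7.34%.

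**Figure D3:**
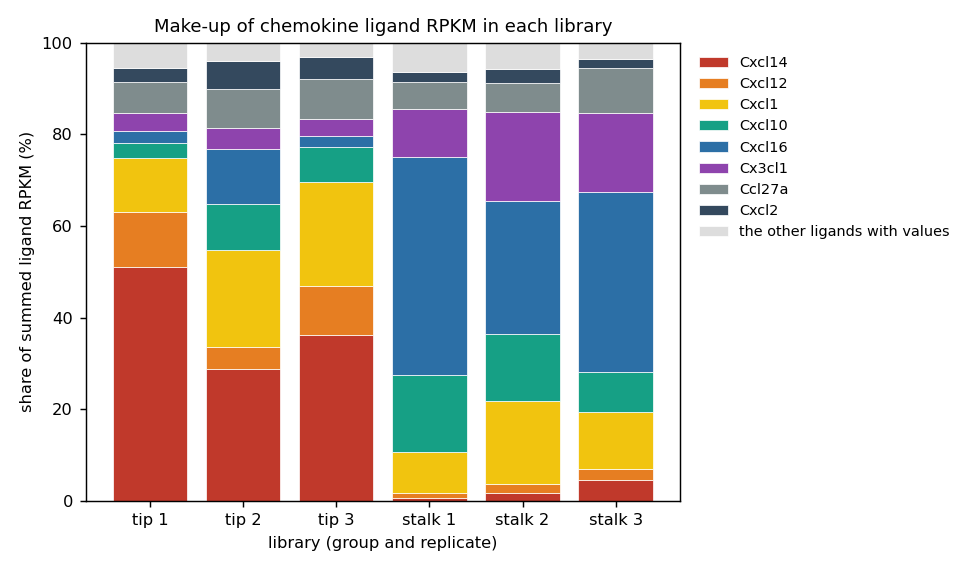
Share of the summed ligand RPKM held by each ligand in each of the 6 libraries, in percent. Cxcl14 takes 28.9% to 51.0% in the tip libraries and 0.657% to 4.45% in the stalk libraries, and Cxcl16 takes 28.9% to 47.6% in the stalk libraries.

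Receptors other than Cxcr4 were few. Cxcr7, the older symbol of Ackr3 and an atypical receptor that takes up CXCL12, was the only other one of 26 listed symbols that reached the minimum level, while 12 had values. Some receptors were listed under both an old and a new symbol, and 22 of the symbols occurred in the deposited data. Its level was 18.9, 25.8 and 21.5 RPKM in tip and 18.4, 25.5 and 28.7 RPKM in stalk. The groups overlapped, and the log2 difference was -0.11 (SE 0.18), short of the threshold (limma, adjusted p = 0.621). Without the pair of libraries that stood apart it was -0.40 and passed (limma, adjusted p = 0.0279). No other receptor could be tested, so the receptor list held 0 calls in either direction, and 0 at an unadjusted p under 0.05.

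Ccr4, a receptor known from T cells, was listed at 0 in tip libraries 1 and 3 and had 0.00686 RPKM in tip library 2, against 0.876, 1.29 and 1.88 RPKM in stalk. Its mean of 0.675 RPKM kept it out of the test, and without a minimum level it was higher in stalk by 1.21 on the log2 scale (limma, adjusted p = 0.00406). The receptors of the stalk-side ligands were near 0: Cxcr6, which binds CXCL16, reached at most 0.237 RPKM and Cx3cr1, which binds fractalkine, at most 0.0242 RPKM. Cxcr2, Cxcr3, Ccr2 and Ccr6, the receptors of CXCL1, CXCL10, CCL2 and CCL20, appeared only in rows of question marks.

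**Figure D4:**
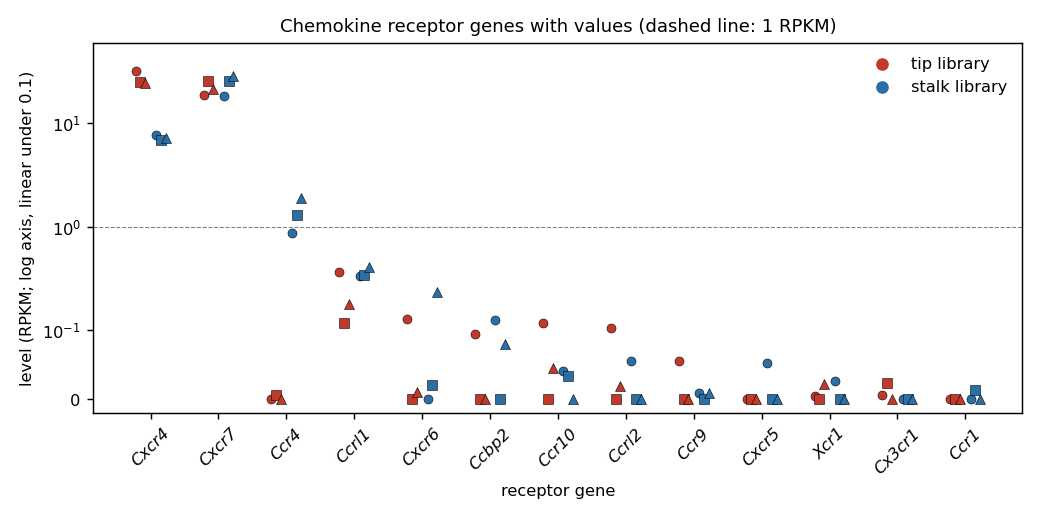
RPKM of chemokine receptors with values in the 3 tip and 3 stalk libraries (points), on a log axis that is linear near 0. Cxcr4 and Cxcr7 are above 1 RPKM in every library, and of these only Cxcr4 has groups that do not overlap.

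The remaining ligands held 1 call. Of 31 listed, 15 had values and 5 were tested, with 1 higher in tip and 0 in stalk, where 26.1% of all tested genes passed as tip-high and 22.5% as stalk-high. The median log2 difference of the 5 was -0.01. Cxcl2, whose product binds CXCR2 as CXCL1 does, had 3.24, 8.55 and 5.96 RPKM in tip and 3.09, 3.04 and 1.62 RPKM in stalk, and rose by 0.90 on the log2 scale (SE 0.31, limma adjusted p = 0.0390). The lowest tip value was barely above the highest stalk value. Its adjusted p was 0.110 without tip library 2, 0.103 without tip library 3, 0.0534 without stalk library 2, 0.130 without stalk library 3 and 0.0836 without the pair that stood apart. Ccl27a, with means of 10.2 ± 2.40 and 7.65 ± 1.08 RPKM for tip and stalk (SD, n = 3), did not pass (limma, adjusted p = 0.147), but did without tip library 1 (limma, adjusted p = 0.0312).

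Genes that relay receptor signals were called in both directions. Of 39 listed, 31 were tested, 9 were higher in tip and 10 in stalk, beside 26.1% and 22.5% of all tested genes, with a median log2 difference of -0.04. Among regulators of G protein signalling, which shorten the signal of the G protein, Rgs16 was higher in tip, at 7.05 ± 1.63 RPKM against 0.505 ± 0.194 RPKM (SD, n = 3; 2.41 on the log2 scale, limma adjusted p = 3.32e-05). Rgs3 was higher in tip by 1.62, at 14.3 RPKM against 3.89 RPKM.

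On the stalk side were Vav2, a guanine nucleotide exchange factor, Jak3, a cytokine receptor kinase, and Arrb1, a beta-arrestin that ends G protein signalling. Vav2 had 12.3 ± 0.869 RPKM in stalk and 4.52 ± 0.250 RPKM in tip (SD, n = 3), a log2 difference of -1.27. Jak3 differed by -1.17 and Arrb1 by -1.10, at 3.33 and 4.04 RPKM in stalk. The G protein beta subunits were the most abundant of the list: Gnb2 was higher in stalk by a small margin, with a log2 difference of -0.32, and did not pass without tip library 1 (limma, adjusted p = 0.0643). Gnb1, at 0.22, did not pass with all 6 libraries (limma, adjusted p = 0.0568).

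Inducers of chemokine genes were also called in both directions. In the list of inflammatory signals and NF-kB genes, 22 of 34 were tested, 3 were higher in tip and 6 in stalk, beside the same 26.1% and 22.5% of all genes, and the median log2 difference was -0.11. Il1r1, the receptor of interleukin-1, had 13.6, 15.5 and 15.2 RPKM in the stalk libraries against 0.776, 1.15 and 0.845 RPKM in the tip libraries, a log2 difference of -3.04. Traf1, an adaptor of tumour necrosis factor receptors, differed by -1.91 and Tnfaip2, a gene induced by that factor, by -1.74. On the tip side were Il33, an alarmin cytokine (1.89), and Tnf, the tumour necrosis factor itself, at 3.24 ± 0.719 RPKM against 0.660 ± 0.120 RPKM (SD, n = 3; 1.34). Nfkbia, the feedback inhibitor of NF-kB, was higher in tip by 0.95, at 148 RPKM against 76.8 RPKM.

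Of 20 interferon response genes 9 were tested, 2 were higher in tip and 3 in stalk, and the median log2 difference was -0.45. With shares of 26.1% and 22.5% over all genes, none of these list counts is read as particular to its list. Ifit2, an antiviral effector, was higher in tip by 1.11, and Bst2, which tethers virions, by 0.65, a call that was lost without stalk library 3 (limma, adjusted p = 0.0609). The transcription factors Stat2 and Irf9 of the interferon pathway were higher in stalk, with log2 differences of -0.72 and -0.59. The Irf9 call was lost when its highest row replaced the sum of rows, with a log2 difference of -0.22 (limma, adjusted p = 0.470). Irf1, at a log2 difference of 0.44, did not pass (limma, adjusted p = 0.260).

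Within groups, Cxcl16 and Cxcl10 were highest in the pair of libraries that stood apart. Cxcl16 in tip library 2 was 5.72-fold the mean of the other tip libraries, and in stalk library 1 it was 2.09-fold the mean of the other stalk libraries. For Cxcl10 these values were 2.14 and 2.10. On the log2(RPKM + 1) scale, Cxcl10 deviated from its group mean by 0.75 in tip library 2 and 0.72 in stalk library 1. Its largest deviations were the low values of tip library 1, at -0.99, and stalk library 3, at -0.81. Cxcl14 and Cxcl12 were the lowest of their group in both libraries. Over all tested genes, 13.5% were the highest of their group in both libraries and 30.7% the lowest in both.

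Of the 22 tested genes of the NF-kB list, 10 (45.5%) were likewise highest in both libraries: Nfkb1, Nfkb2, Rel, Rela, Relb, Nfkbib, Nfkbie, Tnfaip3, Icam1 and Csf1. The lowest in both were 4: Tnfrsf1a, Il33, Nfkbiz and Tnfaip2. The Rel proteins are the DNA-binding subunits of NF-kB, and Relb had 5.53, 17.2 and 3.57 RPKM in tip and 16.6, 2.37 and 4.68 RPKM in stalk. Among interferon genes 3 of 9 were highest in both, Irf7, Rsad2 and Ddx58, and 2 were lowest in both, Irf1 and Ifit2.

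After each group's mean was subtracted, Pearson's r of Cxcl16 over the 6 libraries was 0.98 with the keratin Krt8, 0.97 with the AP-1 gene Fosl1, 0.94 with Rela and 0.88 with Relb. It was 0.72 with Cxcl10 and -0.99 with Cxcl12. These are descriptions over 6 libraries, with no test, and the pair gave the largest deviation of Cxcl16 in each group. The partners were picked after their values were seen and were not ranked among all tested genes. Their r values are therefore not read as particular to them. Immediate early genes did not all move that way, since r of Cxcl16 with Fos was -0.88. What set the pair apart was not tested.

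**Figure D5:**
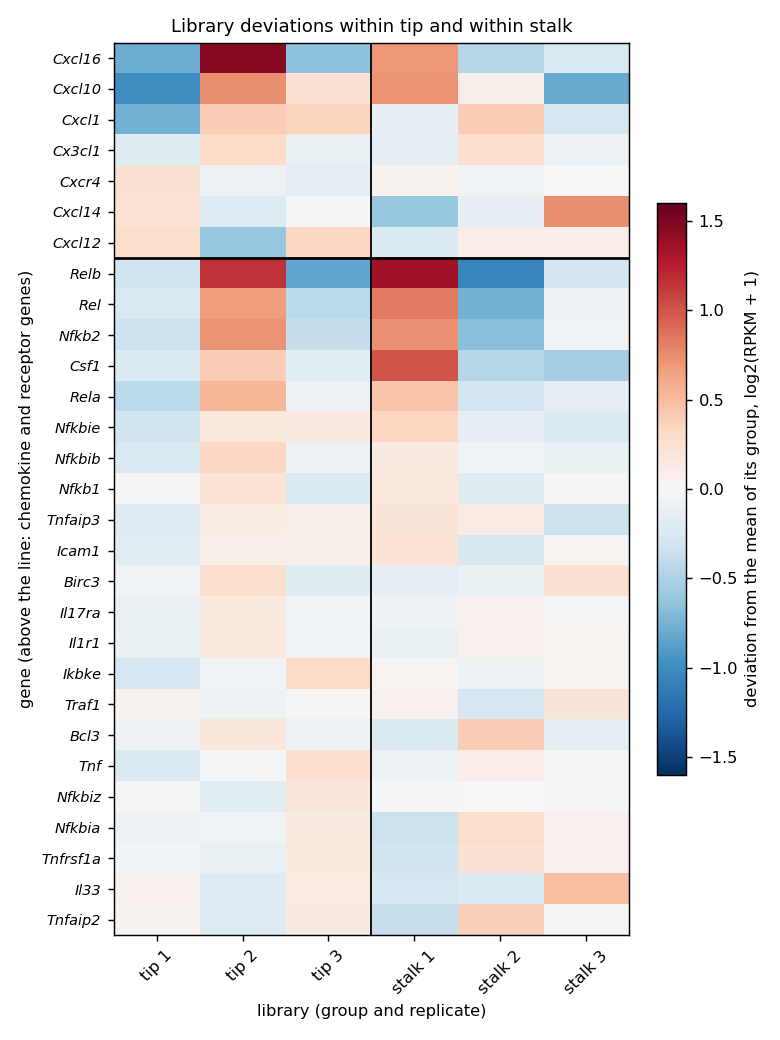
Colour gives the deviation of each chemokine gene (above the line) and each NF-kB list gene (below) from its group mean, on the log2(RPKM + 1) scale, in each library. Cxcl16, Cxcl10 and Relb are highest of their group in tip library 2 and stalk library 1, where Cxcl14 and Cxcl12 are lowest.

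The genes whose pattern over the 6 libraries was most like that of Cxcl14 were Arnt2, a basic helix-loop-helix transcription factor, Lancl2, Tgfa, a ligand of the epidermal growth factor receptor, Pdgfc, a platelet-derived growth factor, and Col9a3, a collagen chain. Pearson's r was 0.9998 for Arnt2 and 0.999 for the other 4, and both groups' means enter it. Arnt2 had 28.7 ± 2.71 RPKM in tip and 3.31 ± 1.36 RPKM in stalk (SD, n = 3). After subtraction of the group means Arnt2 was again first, at 0.999, followed by Hmg20b, Zfp433, Dph2 and Usp5. That second order was not stable: without any 1 of the 3 stalk libraries, 1 of these 5 genes was still among the 50 most alike.

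For Cxcr4 the most alike were Osmr, the oncostatin M receptor, Sema4f, a semaphorin, Anln, which acts in cell division, Tpst1, which adds sulfate to tyrosines, and Pole, a DNA polymerase subunit, with r of 0.998 to 0.999. Osmr had 2.56 ± 0.415 RPKM in tip and 0.237 ± 0.0321 RPKM in stalk (SD, n = 3). After the group means were subtracted the order was Mettl2, Vps13b, Psmd14, Rgp1 and Cep112, none of which was among the first 5. These values describe likeness over 6 libraries and carry no test.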

How the data were processed

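Poly(A) RNA of 3 tip and 3 stalk libraries was measured. The deposited table gives RPKM computed by the authors, made with TopHat2, Partek, bcl2fastq 2.17 and the build mm10 per the submitters' processing notes; settings, annotation and strand use are not given in the sources used here. Of 93615 rows, 24545 held question marks and were dropped, and RPKM was summed over the rows of each symbol. Values reach down to 1.4e-45 and show no steps of single reads, so depth is unknown and no counting interval is given. The 12532 genes averaging 1 RPKM or more were fitted on log2(RPKM + 1) by limma 3.58.1 (R 4.3.3), with a variance trend. Tests were two-sided and Benjamini-Hochberg adjusted over all tested genes at 0.05. The fit was also run on simulated data with far fewer changed genes than were called here, so nothing is read from that run. Nothing says that the libraries came from separate animals, so p-values reflect spread among these libraries alone, possibly technical.

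The genes and lists were chosen with earlier results of these data known. Named from each pathway list were up to 5 called genes with the largest difference and the 2 highest, and the 5 genes most like Cxcl14 and Cxcr4. A gene that this rule took is not reported here. Other genes were named after their values were seen. Among them were Cited1, Crym, Six2, Osr1, Meox1, Wnt4, Laptm5, Cd14, Csf1r, Itgam, Emr1, C1qa, Eng, Pecam1, Cdh5, Kdr, Relb, Fosl1 and Fos. The other genes highest in both libraries that stood apart were also named in this way. Ccr4 and Rela were taken by the rule, and Krt8 was among the 2 highest of its marker list. Rela and Krt8 were chosen as partners of Cxcl16 after their values were seen. Replicate numbers were not taken to pair the samples. Alternatives changed the pseudocount, minimum level, scaling, row summing, variance trend, block and libraries.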

Additional observations from a re-analysis of the deposited data

How the results depend on the processing

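Depth is unknown, so how far it limits low genes such as Ccl20 and Ccr4 cannot be stated. Among the chemokine genes' differences, 104 alternative values moved by less than the spread between libraries, and 2 moved by more: at a pseudocount of 0.1 Cxcl14 was 4.62 and Cxcl12 2.44. The counts over all genes, in tip and in stalk, stayed within 1.5 times in the 15 alternatives run. Whether replicate numbers pair the samples is not known. Deviations of same-numbered libraries correlated at -0.30, -0.34 and 0.09. Each library correlated best with one of another number (tip 2 with stalk 1 at 0.56, tip 3 with stalk 2 at 0.40, tip 1 with stalk 3 at 0.33). Deviations from a group mean constrain each other, and tip 2 and stalk 1 weigh heavily in them, so these correlations cannot settle the pairing. With a replicate block the counts over all genes were 2716 higher in tip and 2380 in stalk, against 3274 and 2815, and no list's count moved by over 1.5 times. Dividing by median ratios moved the median over all genes from 0.05 to -0.01. The other ligands had 0 calls in tip at a minimum of 5 RPKM, with no minimum, under that scaling and without tip 2 and stalk 1 (an alternative chosen after seeing the data), and 0 to 2 calls in tip and 0 to 1 in stalk with 1 library left out. Cxcl2, at a mean of 4.25 RPKM, was not tested at the minimum of 5 RPKM, so its call could not appear there. Other receptors had 1 call in stalk with no minimum (Ccr4) and without tip 2 and stalk 1 (Cxcr7). At a minimum of 5 RPKM, where fewer genes are tested, signal relay genes had 5 calls in tip and 6 in stalk, NF-kB genes 1 and 3, and interferon genes 1 and 1. With no minimum, interferon genes had 1 call in tip and 5 in stalk, and with 1 library left out 1 to 2 in tip. With 1 library left out, direction turned for Acta2 (-0.38 to 0.15, turned without tip 1), Cxcr7 (-0.29 to 0.016, without stalk 3), Pax8 (-0.31 to 0.093, without tip 2, stalk 2 or stalk 3) and Rela (-0.17 to 0.32, without tip 2 or stalk 2). Egfl7, lower in tip by its sum, was 1.14 by its highest row. The genes most like Cxcr4 were not kept when the highest row replaced the sum, with 0 of the 5 among the 50 most alike, nor, after subtraction of group means, without tip 1, with 0 of 5. For Cxcl14 after that subtraction, 1 of 5 was kept without each stalk library in turn, 2 with the highest row and 3 at a minimum of 5 RPKM. Beyond the construction named, the cause was not tested.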
